A study of Mus musculus with 6 samples.

Results

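The Rab GTPases, the branch of the small GTPases that directs vesicle traffic, were examined in bone marrow-derived mesenchymal stromal cells (MSCs) that had or had not been given the thymoproteasome (TPr). Members were all genes of the deposited count table whose symbol is Rab followed by a number and an optional letter and digit, which gave 58 of 23420 genes. Of these, 44 had at least 10 counts in at least 3 of the 6 libraries and are described here, namely 16 of 21 endosomal, 9 of 15 secretory and 12 of 14 ER-Golgi members and 7 of 8 members with other roles. Of the 44, 42 had at least 10 counts in all 6 libraries. Each class was set by the best known site of action of the protein, and several members act at more than 1 site.

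The study compared 3 libraries labelled control (Ctl MSC) with 3 libraries labelled as expressing the thymoproteasome (MSC-TPr). All cells came from femurs of female C57BL/6 mice of 6 to 8 weeks and were transduced at passage 5 with the AP2 retroviral construct, which carries eGFP. In MSC-TPr the construct also coded for the thymoproteasome subunits β1i (Psmb9), β2i (Psmb10) and β5t (Psmb11), and in Ctl MSC it was the empty backbone, so that both groups carried the vector and its marker. The promoter of the construct, and whether the libraries came from separate cultures, are not given in the sources used here, and the p-values therefore measure only the spread between these libraries.

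A Rab protein switches between a GDP-bound form, held in the cytosol by GDP dissociation inhibitors, and a GTP-bound form on a membrane, where it recruits effectors such as motors, tethers and coats. Exchange factors (GEFs) switch it on, and GTPase-activating proteins (GAPs) switch it off. In cells that take up antigen, Rab proteins govern the passage of endosomes and phagosomes from uptake to recycling or degradation, and MSCs also depend on them to secrete matrix and soluble mediators.

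The promoters of 4 members are shown because the counts of 3 of them, Rab5a, Rab8a and Rab10, exceeded in each MSC-TPr library those of all Ctl MSC libraries, while Rab5b, a paralogue of Rab5a, lay lower in MSC-TPr 2 and 3. In counts scaled to library size, Rab14, Rab1, Rab1b and Rab6a also exceeded all Ctl MSC libraries, and their promoters are not shown. Each sequence given is the stretch of 250 bases before the RefSeq start site, 5′ to 3′ on the strand of the gene, in GRCm38.p6, with no annotated exon in it. Capitals mark CACGTG, the core of E-boxes, CCAAT and its reverse complement ATTGG, and GGGCGG and its reverse complement CCGCCC.
Rab5a (chr17:53478984-53479233, plus strand): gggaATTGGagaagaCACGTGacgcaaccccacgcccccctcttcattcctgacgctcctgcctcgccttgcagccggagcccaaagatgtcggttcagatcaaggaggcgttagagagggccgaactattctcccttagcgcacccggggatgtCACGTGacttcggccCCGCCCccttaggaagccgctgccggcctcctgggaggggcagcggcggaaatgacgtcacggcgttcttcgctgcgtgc
Rab5b (chr10:128696269-128696518, minus strand): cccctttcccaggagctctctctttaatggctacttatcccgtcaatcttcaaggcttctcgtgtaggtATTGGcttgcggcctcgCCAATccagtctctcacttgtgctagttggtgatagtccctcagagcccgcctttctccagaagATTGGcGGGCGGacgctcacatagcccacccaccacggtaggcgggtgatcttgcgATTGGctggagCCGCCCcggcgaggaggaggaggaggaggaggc
Rab8a (chr8:72160950-72161199, plus strand): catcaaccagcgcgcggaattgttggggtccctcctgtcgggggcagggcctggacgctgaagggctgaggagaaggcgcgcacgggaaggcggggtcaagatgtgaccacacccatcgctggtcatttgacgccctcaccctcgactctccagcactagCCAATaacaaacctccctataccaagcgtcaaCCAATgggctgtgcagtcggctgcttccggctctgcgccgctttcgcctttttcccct
Rab10 (chr12:3309970-3310219, minus strand): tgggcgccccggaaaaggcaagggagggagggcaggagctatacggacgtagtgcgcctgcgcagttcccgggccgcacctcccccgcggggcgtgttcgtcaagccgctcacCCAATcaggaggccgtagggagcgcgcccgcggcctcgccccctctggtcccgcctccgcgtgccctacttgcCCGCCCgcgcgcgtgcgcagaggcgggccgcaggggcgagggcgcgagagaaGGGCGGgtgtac

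The upstream stretch of Rab5a held 4 such matches, that of Rab5b 6, that of Rab8a 2 and that of Rab10 3. Of the 44 members, 38 had a promoter in the RefSeq table, taken as 300 bases that include 250 before the start site, and both strands were searched. CCAAT occurred in 21 of the 38 members (55.3%), against 41.1% of the 27025 genes in that table. GGGCGG occurred in 30 members (78.9%), against 38.2% of all genes. CACGTG occurred in 5 members (13.2%, against 8.09%), and its longer form TCACGTGA, which is part of the sites known for the TFEB family of lysosomal regulators and whose matches are also counted under CACGTG, occurred in 3 members (7.89%, against 1.12%), namely Rab5a, Rab21 and Rab24. The members' promoters were richer in G and C, with a median of 63.0% against 52.7%, and had a median ratio of observed to expected CpG of 0.769 against 0.389. The 38 members had passed the count limit, whereas the 27025 genes were not filtered by their counts. These contrasts therefore cannot tell Rab genes from expressed genes in general. These matches describe the letters of the window, and binding was not measured.

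The libraries were compared first as a whole, since 1 library of each label stood apart. Reads on genes ranged from 16158756 to 22158887 in the 6 libraries, and the detection limit of 3 reads came to 0.139 to 0.181 CPM, the reads scaled to a common library size with edgeR's TMM factors. Of the MSC markers, 7 of 9 exceeded 1 CPM in every library, but Thy1 (CD90) had 1 read in all 6 libraries together and Lepr lay between 0.441 and 2.13 CPM. The 4 endothelial markers summed to 0.785 to 3.09 CPM in Ctl MSC and 1.62 to 3.32 CPM in MSC-TPr, and the 7 blood cell markers to 2.36 to 9.77 CPM and 1.76 to 14.2 CPM, most of it Cd68 except in MSC-TPr 3 (Cd68 at 0.788 and Csf1r at 0.835 CPM), with Adgre1 and Cd3e at 0. None of Psmb9, Psmb10 and Psmb11 was higher in every MSC-TPr library than in every Ctl MSC library. Psmb11 was near the limit of 3 reads under both labels, with 2, 4 and 2 reads in Ctl MSC against 4, 6 and 1 in MSC-TPr. Psmb9 stood at 3.38, 0.801 and 0.827 CPM in Ctl MSC against 0.553, 1.24 and 1.205 CPM in MSC-TPr. Psmb10 stood at 27.8, 8.81 and 8.38 CPM against 8.96, 17.3 and 15.2 CPM. Each direction given here is therefore one between library labels. On the log2 CPM scale, 10 cell division genes averaged 6.84, 3.43 and 3.38 in Ctl MSC libraries 1, 2 and 3, against 3.42, 6.68 and 6.76 in MSC-TPr libraries 1, 2 and 3. In these genes Ctl MSC 1 thus lay with MSC-TPr 2 and 3, and MSC-TPr 1 lay with Ctl MSC 2 and 3. The crossing was not limited to them. On the first principal component of log2 CPM over all genes tested (58.5% of the variance), Ctl MSC 1, 2 and 3 stood at -40.95, 50.85 and 49.2. MSC-TPr 1, 2 and 3 stood there at 40.5, -50.3 and -49.4. The second component (28.3%) parted the labels, at -48.9, -20.4 and -19.6 against 49.1, 24.2 and 15.6. Results are therefore given over all 6 libraries and over the libraries numbered 2 and 3 of each group, where the label and the level of cell division genes cannot be told apart. That subset was set by these same data, so calls in it describe those libraries and are not a separate test of the labels.

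As a family, the Rab genes had overlapping levels under both labels. The 44 members summed to 3422, 3244 and 3344 CPM in the Ctl MSC libraries, against 3682, 3595 and 3345 CPM in the MSC-TPr libraries, a ratio of 1.06 with overlapping groups. Per exon length, in CPM per kilobase of exon, the highest levels were those of Rab2a at 124 ± 13.0 (SD, n = 6 libraries) and Rab1 (Rab1a) at 95.5 ± 8.47, both of which serve transport from the ER to the Golgi. Rab7, the late endosomal and lysosomal Rab, followed at 63.1 ± 11.6, and Rab10, which carries GLUT4 and other cargo to the plasma membrane, at 53.4 ± 10.1. Rab5c, an early endosomal member, had 48.0 ± 7.13, and differed from Rab10, Rab6a and Rab34 by less than this spread. With coding length in place of exon length, 7 of the 10 most abundant members remained among the first 10, but the order changed. Rab1 then ranked 1, Rab2a 2, Rab14 3 (20 by exon length), Rab10 4 and Rab7 7, and Rab34 fell from 7 to 20. The lowest of the 44 were Rab36 and Rab40b, at 0.272 ± 0.167 and 0.276 ± 0.144.

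**Figure D1:**
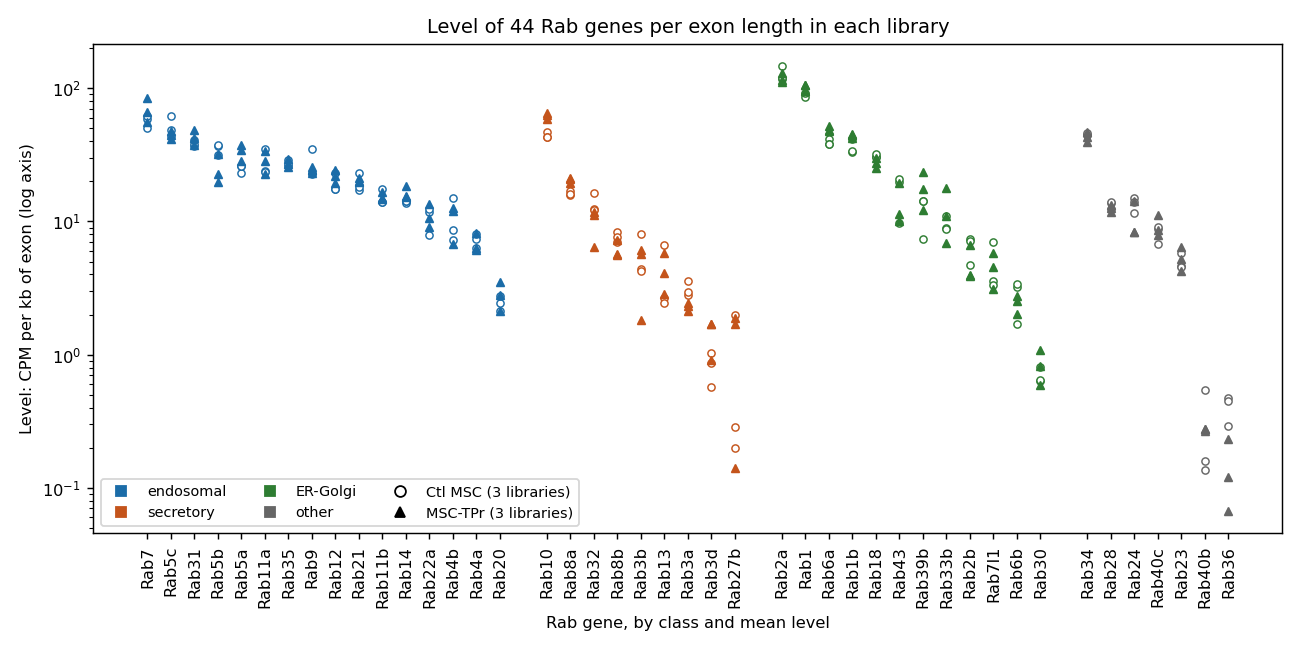
Level of each of the 44 Rab genes in CPM per kilobase of exon (vertical axis, log scale), by class and then by mean level, with open circles for the 3 Ctl MSC libraries and triangles for the 3 MSC-TPr libraries. Rab2a and Rab1 lie highest, and the libraries of Rab27b fall into a high and a low set that each hold both labels.

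The members differed in how far they varied between libraries. The highest library exceeded the lowest by a ratio of only 1.14 in Rab35, a regulator of recycling at the plasma membrane, 1.18 in Rab34 and 1.19 in Rab28, both linked to cilia. At the other end the ratio was 14.2 in Rab27b, 7.09 in Rab36 and 4.40 in Rab3b. Rab27b and Rab3b are Rabs of regulated exocytosis, and Rab36 acts in the positioning of lysosomes.

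**Figure D2:**
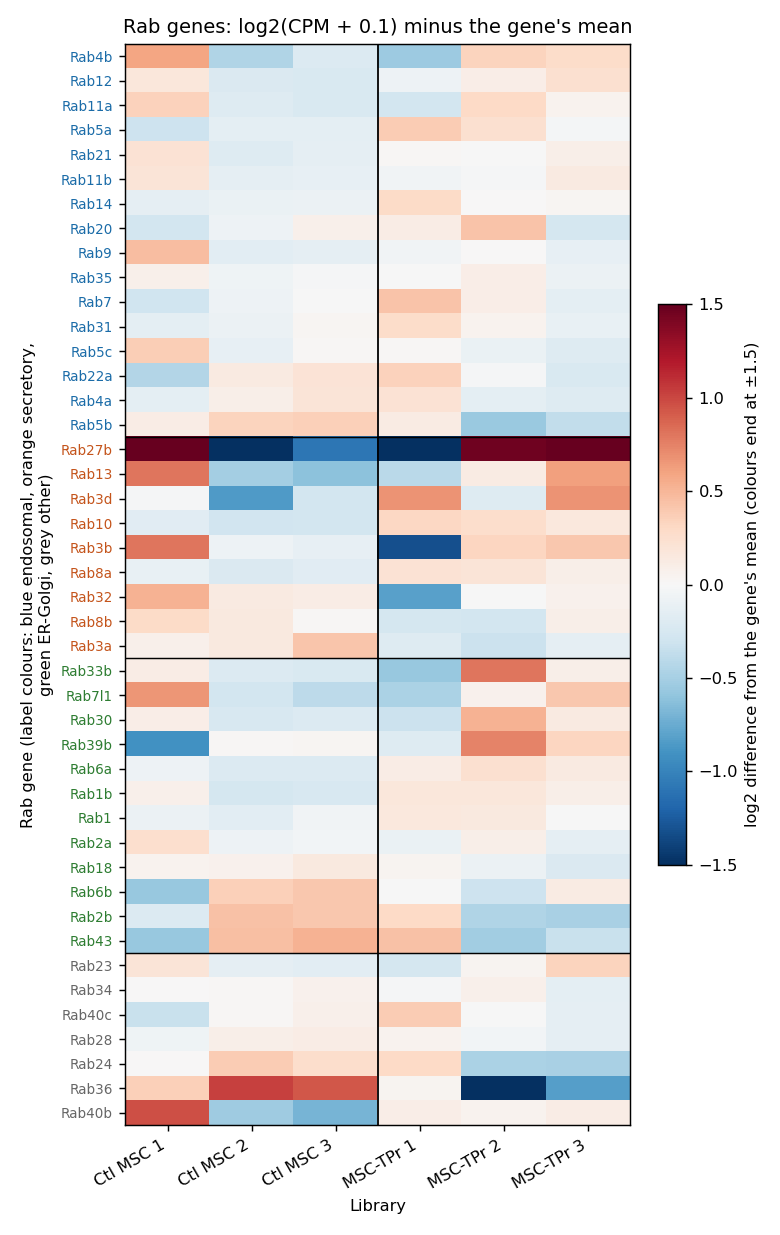
Difference of each library from the gene's mean over the 6 libraries, on the log2(CPM + 0.1) scale, for the 44 Rab genes (rows, by class) and 6 libraries (columns), with red above and blue below the mean and colours ending at a difference of 1.5. Rab27b, Rab13 and Rab4b are red in Ctl MSC 1, MSC-TPr 2 and MSC-TPr 3, while Rab10, Rab8a and Rab6a are red in the 3 MSC-TPr libraries.

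To ask whether the labelled groups differed, all genes were fitted with edgeR's quasi-likelihood test, and a gene was called at a Benjamini-Hochberg adjusted p under 0.05 with the log2 fold change at 0.5 or more in size. Over all 6 libraries, edgeR called 0 of 43 members tested, with a background of 0.426% of all genes called (51 of 11974), 0.0251% higher and 0.401% lower in MSC-TPr. With p under 0.05 before adjustment, 4 members were higher and 2 lower in MSC-TPr, where 15.0% of all genes passed, 6.81% higher and 8.23% lower. DESeq2 also called 0 members over the 6 libraries, with 5.31% of all genes called, 1.90% higher and 3.42% lower. The median log2 fold change of the members was 0.04, beside 0.01 for all genes, and the median of its size was 0.20, beside 0.29. In these bulk libraries fewer cells of a type and less RNA per cell cannot be told apart.

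Over the libraries numbered 2 and 3, edgeR called 10 of 43 members (23.3%), 5 higher and 5 lower in MSC-TPr, where 40.0% of all genes were called, 20.6% higher and 19.4% lower. DESeq2 called 6 higher and 5 lower there, where 34.6% of all genes were called, 18.3% higher and 16.3% lower. The share of members called was thus below that of all genes, and the median size of their log2 fold changes was 0.34, beside 0.47 for all genes. By class, 2 of 16 endosomal, 2 of 9 secretory, 4 of 12 ER-Golgi and 2 of 6 other members were called. The median log2 fold change over these 4 libraries was 0.10 in the endosomal, 0.46 in the secretory, 0.28 in the ER-Golgi and -0.15 in the other class, beside -0.00 for all genes. Over all 6 libraries the same medians were 0.05, 0.12, 0.08 and -0.07. Leaving out 1 library at a time, they ranged from -0.02 to 0.14, -0.16 to 0.36, -0.05 to 0.26 and -0.10 to -0.04. The endosomal median fell below 0 without Ctl MSC 2, the secretory one without Ctl MSC 2, Ctl MSC 3 or MSC-TPr 3, and the ER-Golgi one without MSC-TPr 2.

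**Figure D3:**
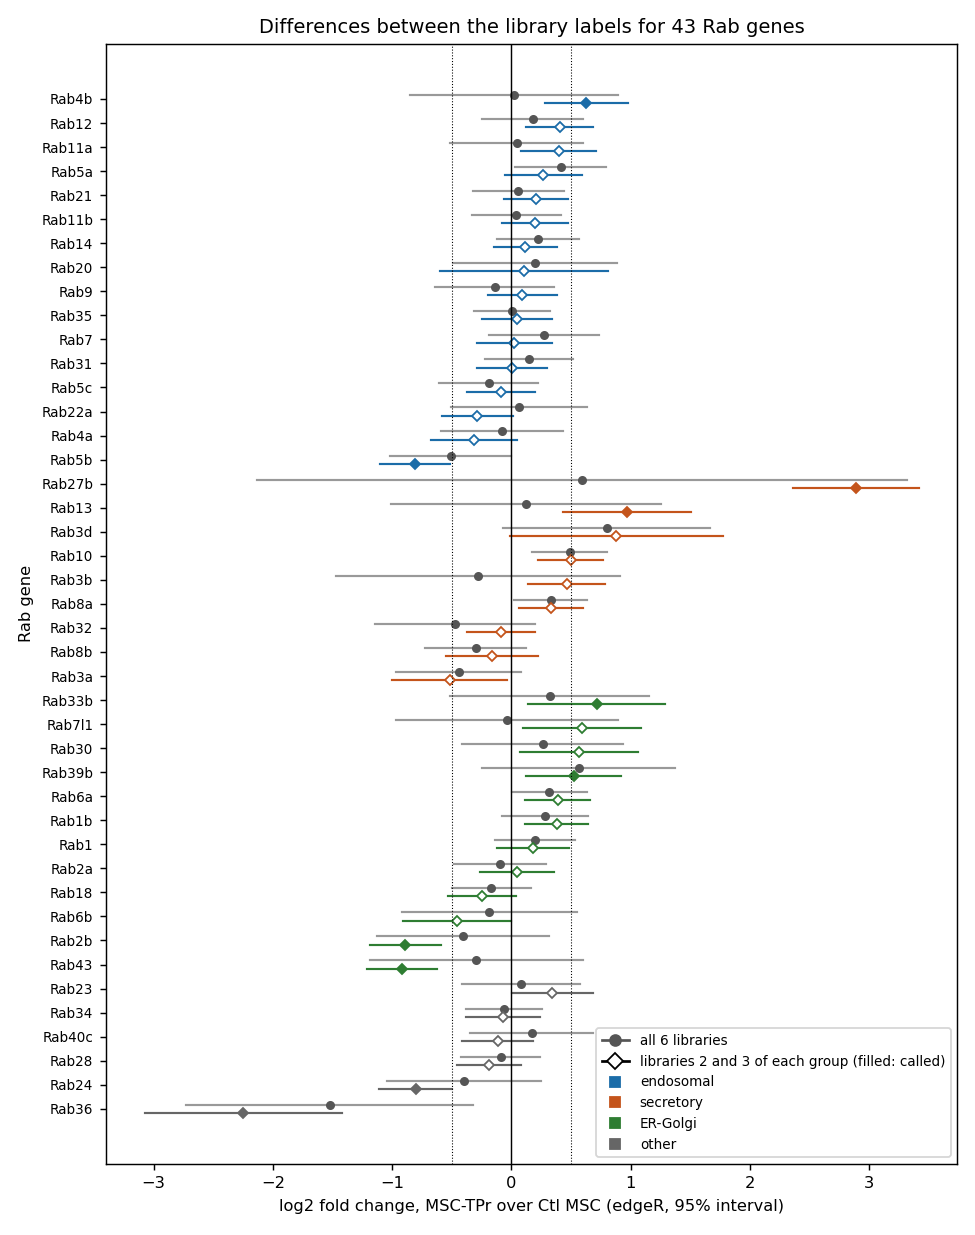
Log2 fold change of MSC-TPr over Ctl MSC for the 43 Rab genes tested (rows, by class), from edgeR over all 6 libraries (grey circles) and over the libraries numbered 2 and 3 (diamonds, filled where called), with 95% intervals as bars and dotted lines at 0.5 in either direction. Only the fit over the libraries numbered 2 and 3 has filled diamonds, 5 on each side.

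The groups of 3 did not overlap in 11 of 43 members (25.6%), 7 higher and 4 lower in MSC-TPr, where 22.6% of all genes did not overlap, 10.6% higher and 12.1% lower. The higher ones were Rab5a, Rab14, Rab8a, Rab10, Rab1, Rab1b and Rab6a, and the lower ones Rab32, Rab3a, Rab18 and Rab36. Ctl MSC 1 lay nearer to MSC-TPr 2 and 3 than to Ctl MSC 2 and 3 in 23 members (53.5%, against 61.0% of all genes), and MSC-TPr 1 lay nearer to Ctl MSC 2 and 3 in 24 (55.8%, against 59.8%). Of the 10 members called over the libraries numbered 2 and 3, MSC-TPr 1 lay on the side of Ctl MSC 2 and 3 in 10, against 66.7% of all genes called there and tested over 6 libraries, and Ctl MSC 1 on the side of MSC-TPr 2 and 3 in 5, against 68.7%.

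Among the secretory members, Rab10 (chr12:3247428-3309969) differed most evenly between the labels. It stood at 165, 151 and 152 CPM in Ctl MSC libraries 1, 2 and 3, against 229, 221 and 207 CPM in MSC-TPr libraries 1, 2 and 3. The groups did not overlap, and neither library numbered 1 stood apart from its label. Its log2 fold change was 0.49 (SE 0.13), which edgeR did not call (adjusted p = 0.185, the lowest of the 43 members). DESeq2 gave it an adjusted p of 0.0233 and a log2 fold change of 0.499, just under the threshold of 0.5. Over the libraries numbered 2 and 3 edgeR gave 0.4965 (adjusted p = 0.0146), which was not called for the same reason. There DESeq2 gave 0.5007, just over the threshold, and called Rab10 higher. The opposite strand holds Rab10os, whose reads cannot be told apart if counting ignored the strand.

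Rab8a (chr8:72161200-72183904), which takes post-Golgi vesicles to the plasma membrane and the cilium, stood at 78.7, 73.3 and 75.4 CPM in the Ctl MSC libraries, against 98.7, 96.8 and 90.3 CPM in the MSC-TPr libraries. Its groups were apart by more than the spread within either, and edgeR gave a log2 fold change of 0.33 (SE 0.13, adjusted p = 0.302). Its paralogue Rab8b stood at 39.7, 35.9 and 32.9 CPM in the Ctl MSC libraries, against 26.9, 26.7 and 34.4 CPM in the MSC-TPr libraries. These groups overlapped, with a log2 fold change of -0.30 (SE 0.18).

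Rab27b, which docks secretory granules and exosome-bearing endosomes at the plasma membrane, stood at 21.3, 2.14 and 3.03 CPM in the Ctl MSC libraries, against 1.49, 18.2 and 20.1 CPM in the MSC-TPr libraries. The high libraries were Ctl MSC 1 and MSC-TPr 2 and 3, the libraries that were also high in cell division genes, and the part of that difference in the result was not tested. Over all 6 libraries edgeR gave a log2 fold change of 0.59 (SE 1.14, adjusted p = 0.848), and over the libraries numbered 2 and 3 it called Rab27b higher at 2.89 (SE 0.22, adjusted p = 0.000365). Rab27a, its close relative, docks lysosome-related granules and also serves exosome release. It had only 3, 1 and 1 reads in the Ctl MSC libraries, against 3, 3 and 16 reads in the MSC-TPr libraries. Rab27b thus made up 97.6% to 99.2% of the Rab27 CPM in Ctl MSC and 90% to 99.03% in MSC-TPr.

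Rab13, which delivers junction proteins to the surface, was highest in the same 3 libraries as Rab27b. It stood at 15.3, 6.09 and 5.62 CPM in the Ctl MSC libraries, against 6.53, 9.46 and 13.4 CPM in the MSC-TPr libraries. Its log2 fold change was 0.12 over all 6 libraries (SE 0.47) and 0.97 over the libraries numbered 2 and 3 (SE 0.22), where edgeR called it (adjusted p = 0.0152).

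The Rab3 genes, Rabs of regulated exocytosis, differed from each other in their levels across libraries. Rab3b stood at 28.3, 15.4 and 14.9 CPM in the Ctl MSC libraries, against 6.42, 20.2 and 21.5 CPM in the MSC-TPr libraries, with MSC-TPr 1 the lowest of the 6. Its log2 fold change was -0.28 over all 6 libraries (SE 0.50). Over the libraries numbered 2 and 3 the sign was reversed, at 0.46 (SE 0.13, edgeR adjusted p = 0.0315), under the threshold of 0.5. Rab3d had the largest positive log2 fold change of the members over all 6 libraries, 0.80 (SE 0.36, edgeR adjusted p = 0.365), from 4.35, 2.40 and 3.64 CPM in the Ctl MSC libraries to 7.08, 3.84 and 7.14 CPM in the MSC-TPr libraries, and its groups overlapped through MSC-TPr 2. Rab3a, best known from synaptic vesicles, stood at 6.28, 6.62 and 7.99 CPM in the Ctl MSC libraries, against 5.20, 4.73 and 5.42 CPM in the MSC-TPr libraries, which did not overlap (log2 fold change -0.44, SE 0.22, edgeR adjusted p = 0.401). Rab3a shares exon sequence with Mpv17l2 on the opposite strand. Rab3c had 1 read in each of 3 libraries and 0 in the others.

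Rab32, which serves melanosomes and other lysosome-related organelles, stood at 38.3, 29.0 and 28.7 CPM in the Ctl MSC libraries, against 15.0, 26.4 and 27.7 CPM in the MSC-TPr libraries. The groups did not overlap, but MSC-TPr 2 and 3 lay just below the lower controls, and the log2 fold change of -0.47 over all 6 libraries (SE 0.28, edgeR adjusted p = 0.481) became -0.09 (SE 0.12) without the libraries numbered 1. As a class, the 9 secretory members summed to 397, 322 and 324 CPM in the Ctl MSC libraries, against 396, 427 and 427 CPM in the MSC-TPr libraries, a ratio of 1.198 with Ctl MSC 1 and MSC-TPr 1 overlapping.

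**Figure D4:**
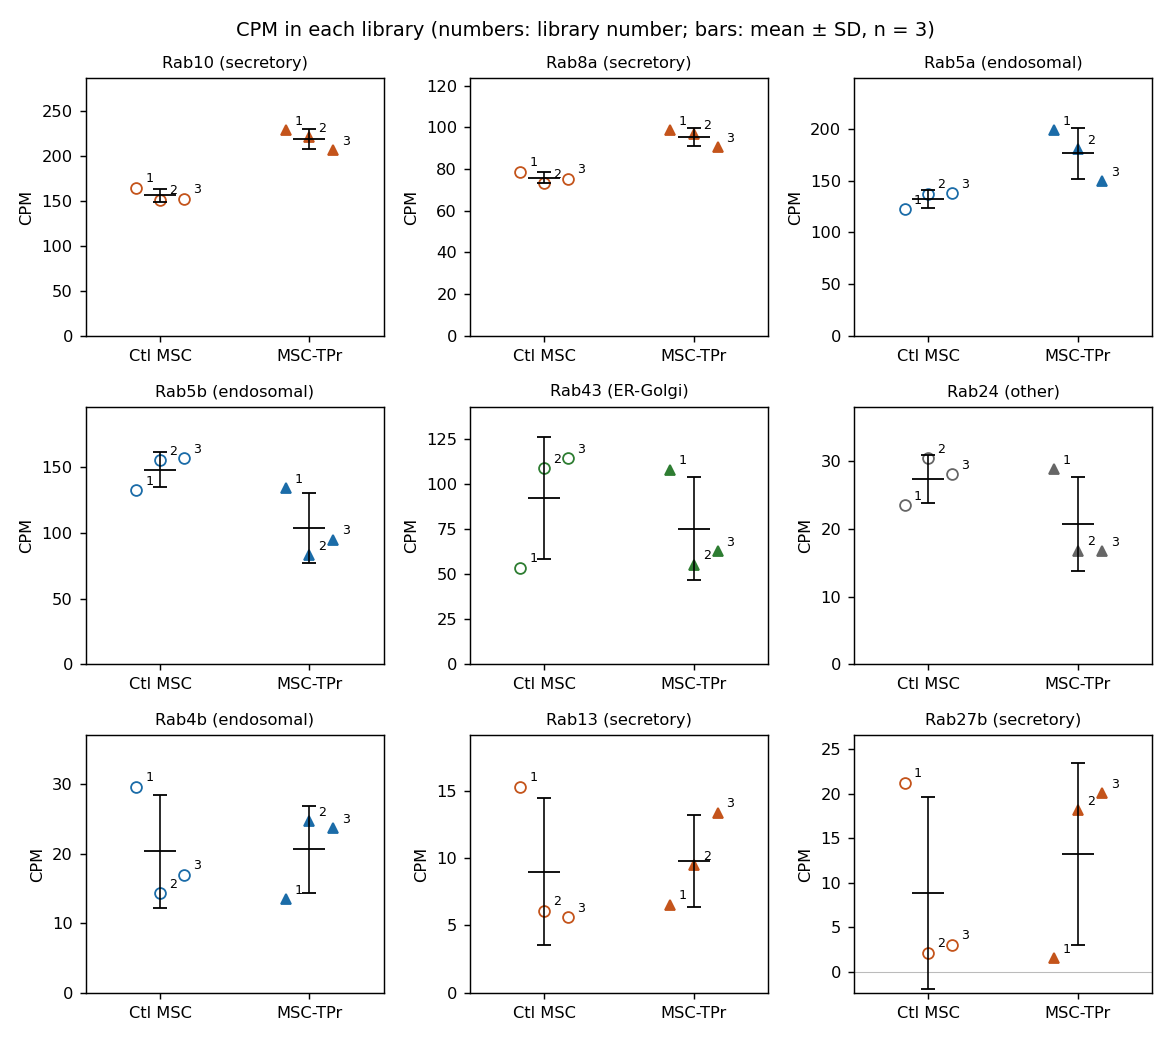
CPM of 9 Rab genes in each library (points, with the library number beside each), with the mean ± SD of the 3 libraries of each label as bars. Rab10, Rab8a and Rab5a are higher in all 3 MSC-TPr libraries, while in Rab27b, Rab13 and Rab4b the libraries numbered 1 lie with the other label.

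Among the endosomal members, the early endosomal Rab5 genes lay in different directions. Rab5a (chr17:53479234-53507680) stood at 123, 137 and 138 CPM in the Ctl MSC libraries, against 199, 180.4 and 149 CPM in the MSC-TPr libraries. The groups did not overlap, and edgeR gave a log2 fold change of 0.41 (SE 0.16, adjusted p = 0.301) over all 6 libraries and 0.27 (SE 0.13, adjusted p = 0.147) over the libraries numbered 2 and 3. Its exons overlap those of Pp2d1 on the opposite strand.

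Rab5b (chr10:128677175-128696264) lay in the other direction, at 133, 155 and 157 CPM in the Ctl MSC libraries, against 134, 83.2 and 94.7 CPM in the MSC-TPr libraries. MSC-TPr 1 overlapped with the controls. The libraries high in cell division genes, Ctl MSC 1 and MSC-TPr 2 and 3, were the lowest, though Ctl MSC 1 lay only just below MSC-TPr 1. The part of that difference was not tested. The log2 fold change was -0.51 over all 6 libraries (SE 0.21, edgeR adjusted p = 0.328), and over the libraries numbered 2 and 3 edgeR called Rab5b lower at -0.81 (SE 0.12, adjusted p = 0.00357). Rab5c stood at 135, 96.2 and 106 CPM in the Ctl MSC libraries, against 106, 97.9 and 91.7 CPM in the MSC-TPr libraries, which overlapped (log2 fold change -0.19, SE 0.17).

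The shares of paralogues were then compared within 9 families (20 shares), which removes the scaling between libraries. Rab5a made up 31.4%, 35.3% and 34.4% of the summed Rab5 CPM in Ctl MSC and 45.4%, 49.9% and 44.5% in MSC-TPr, and Rab5b 34.0%, 39.9% and 39.1% against 30.6%, 23.01% and 28.2%. The groups did not overlap in either share, and the libraries numbered 1 lay with their labels. Each gave p = 0.1 in a two-sided exact permutation test, the smallest that 3 against 3 libraries allow, and 0.5 after Benjamini-Hochberg adjustment over the 20 shares. The share of Rab8a within the Rab8 pair was 66.5% to 69.6% in Ctl MSC and 72.4% to 78.6% in MSC-TPr, again without overlap and with the same p. In a pair the share of 1 gene mirrors that of the other, so Rab8b was lower without overlap. For the same reason the 20 shares are not separate tests. The other shares overlapped between the labels. In the Rab4 pair Rab4a made up 27.3% in Ctl MSC 1 and 31.2% in MSC-TPr 2 and 3, but 45.5% to 51.6% in the other 3 libraries.

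**Figure D5:**
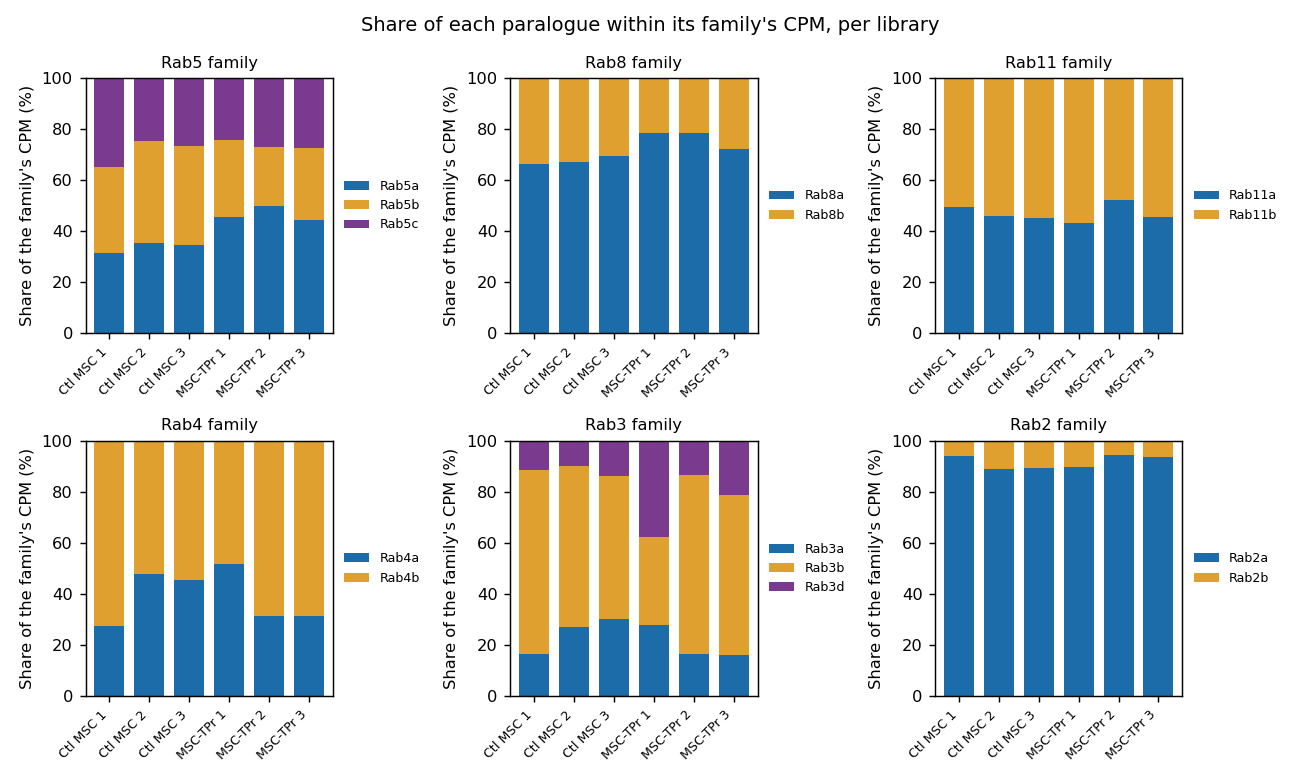
Share of each paralogue in the summed CPM of its family (percent, stacked bars) in each of the 6 libraries, for 6 Rab families. The bar of Rab5a is taller in the 3 MSC-TPr libraries (44.5% to 49.9%) than in the 3 Ctl MSC libraries (31.4% to 35.3%).

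Rab4b (chr7:27168424-27178896), which returns receptors from early endosomes, was the endosomal member called higher over the libraries numbered 2 and 3. It stood at 29.6, 14.4 and 16.98 CPM in the Ctl MSC libraries, against 13.5, 24.7 and 23.7 CPM in the MSC-TPr libraries, with Ctl MSC 1 the highest and MSC-TPr 1 the lowest library. Its high libraries, Ctl MSC 1 and MSC-TPr 2 and 3, were those high in cell division genes. The part of that difference was not tested. The log2 fold change was 0.02 over all 6 libraries (SE 0.36) and 0.63 over the libraries numbered 2 and 3 (SE 0.14, edgeR adjusted p = 0.0156). Its exons overlap those of Gm21983 on the same strand, and how reads there were assigned is not known.

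Several endosomal members have been linked to cross-presentation, the display of exogenous antigen on MHC class I. The secretory Rab3b, Rab3c, Rab27a and Rab32, given above, and the ER-Golgi member Rab43, given below, were also taken as linked to it. Rab14, which exchanges cargo between early endosomes and the trans-Golgi, stood at 187, 193 and 194 CPM in the Ctl MSC libraries, against 251, 207.5 and 211 CPM in the MSC-TPr libraries, without overlap (log2 fold change 0.22, SE 0.14, edgeR adjusted p = 0.518). Rab22a, which recycles clathrin-independent cargo including MHC class I, stood at 56.6, 84.2 and 88.8 CPM in the Ctl MSC libraries, against 97.8, 76.0 and 65.8 CPM in the MSC-TPr libraries, with the library numbered 1 at the low end in Ctl MSC and the high end in MSC-TPr. Rab11a, the Rab of the recycling endosome, stood at 105, 72.0 and 70.5 CPM in the Ctl MSC libraries, against 68.4, 102 and 85.4 CPM in the MSC-TPr libraries, the opposite order of the libraries numbered 1. Their log2 fold changes over all 6 libraries were 0.06 (SE 0.24) for Rab22a and 0.04 (SE 0.23) for Rab11a, and the groups of each overlapped. Rab39, of late endosomes and phagosomes, had 0 reads in all 6 libraries, which at this depth allows up to 0.139 to 0.181 CPM per library, counting error only.

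Rab7 and Rab31, both endosomal, had groups that overlapped. Rab7 stood at 132, 154 and 162 CPM in the Ctl MSC libraries, against 219, 174 and 147 CPM in the MSC-TPr libraries, with a log2 fold change of 0.27 (SE 0.19). Rab31, which links the trans-Golgi to endosomes, stood at 139.8 to 157 CPM in Ctl MSC and 143 to 187 CPM in MSC-TPr, with a log2 fold change of 0.15 (SE 0.15). The other 7 endosomal members, Rab4a, Rab9, Rab11b, Rab12, Rab20, Rab21 and Rab35, had overlapping groups, with log2 fold changes from -0.14 (Rab9) to 0.20 (Rab20).

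Of the ER-Golgi members, Rab1, Rab1b and Rab6a were higher in each MSC-TPr library than in any Ctl MSC library. Rab1 (chr11:20201432-20226856) stood at 341, 324 and 348 CPM in the Ctl MSC libraries, against 403.5, 399 and 360.2 CPM in the MSC-TPr libraries, a log2 fold change of 0.20 (SE 0.14). Rab1b stood at 95.1, 75.3 and 76.9 CPM against 102, 102 and 96.0 CPM, a log2 fold change of 0.28 (SE 0.15). Rab6a, of retrograde and intra-Golgi transport, stood at 156, 143 and 143 CPM against 177, 193 and 179.9 CPM, a log2 fold change of 0.32 (SE 0.13). EdgeR called none of the 3, with adjusted p-values of 0.547, 0.440 and 0.324. Rab2a, the highest per exon length, stood at 312, 249 and 256 CPM in the Ctl MSC libraries, against 246, 279.7 and 239 CPM in the MSC-TPr libraries, which overlapped (log2 fold change -0.09, SE 0.16). Rab18, of the ER and lipid droplets, stood at 209, 209.6 and 222 CPM in the Ctl MSC libraries, against 206, 189 and 174 CPM in the MSC-TPr libraries, lower without overlap (log2 fold change -0.17, SE 0.14, edgeR adjusted p = 0.614). Rab6b, Rab7l1 (Rab29) and Rab30 overlapped, with log2 fold changes of -0.19, -0.04 and 0.26.

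The 4 ER-Golgi members called over the libraries numbered 2 and 3 fell into 2 that were lower and 2 that were higher. Rab43 (chr6:87788853-87812164), a Golgi Rab that has been linked to cross-presentation in dendritic cells, stood at 53.6, 109 and 114 CPM in the Ctl MSC libraries, against 108, 55.3 and 62.8 CPM in the MSC-TPr libraries. Its low libraries were the 3 that were high in cell division genes, and the part of that difference was again not tested. The log2 fold change was -0.29 over all 6 libraries (SE 0.37) and -0.92 over the libraries numbered 2 and 3 (SE 0.12, edgeR adjusted p = 0.00242). Rab2b, a paralogue of Rab2a, stood at 19.6, 30.6 and 29.9 CPM in the Ctl MSC libraries, against 27.9, 16.6 and 16.1 CPM in the MSC-TPr libraries, and was lowest in the same 3 libraries as Rab43. Its log2 fold change was -0.41 (SE 0.30) and -0.89 (SE 0.12, edgeR adjusted p = 0.00272) in these fits. Rab43 overlaps Gm45140 on the same strand, and Rab2b overlaps Tox4 on the opposite strand.

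Rab33b, which acts within the Golgi and in autophagosome formation, stood at 39.2, 31.4 and 30.9 CPM in the Ctl MSC libraries, against 24.5, 63.5 and 38.7 CPM in the MSC-TPr libraries. MSC-TPr 2 alone lay well above the other libraries. Ctl MSC 1 and MSC-TPr 3, which like it were high in cell division genes, came next, and the part of that difference was not tested. Its log2 fold change of 0.32 over all 6 libraries (SE 0.35) was 0.71 over the libraries numbered 2 and 3 (SE 0.23, edgeR adjusted p = 0.0496, just inside the threshold). Rab39b, a Golgi Rab best known from neurons, stood at 25.3, 48.0 and 48.5 CPM in the Ctl MSC libraries, against 41.4, 79.5 and 59.2 CPM in the MSC-TPr libraries, with both libraries numbered 1 the lowest of their labels. The log2 fold change was 0.56 over all 6 libraries (SE 0.34, edgeR adjusted p = 0.488) and 0.52 over the libraries numbered 2 and 3 (SE 0.16, adjusted p = 0.0421). Exons of Rab6a, Rab33b and Rab39b overlap those of another gene on the opposite strand, and exons of Rab11a and Rab18 those of another gene on the same strand.

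Among the members with other roles, Rab36 (chr10:75037058-75054748) had the largest negative log2 fold change of the family. It was low throughout, at 1.81, 2.94 and 2.76 CPM in the Ctl MSC libraries, against 1.44, 0.414 and 0.742 CPM in the MSC-TPr libraries, without overlap. The log2 fold change was -1.53 over all 6 libraries (SE 0.50, edgeR adjusted p = 0.242, DESeq2 adjusted p = 0.0972) and -2.25 over the libraries numbered 2 and 3 (SE 0.34, edgeR adjusted p = 0.00376). Rab24 (chr13:55319743-55321946), a Rab of late autophagy that shares exon sequence with Prelid1 on the opposite strand, stood at 23.5, 30.4 and 28.1 CPM in the Ctl MSC libraries, against 28.8, 16.8 and 16.7 CPM in the MSC-TPr libraries. MSC-TPr 1 lay among the controls, and the log2 fold change was -0.40 over all 6 libraries (SE 0.27) and -0.80 over the libraries numbered 2 and 3 (SE 0.13, edgeR adjusted p = 0.0042). Rab24 was lowest in Ctl MSC 1 and MSC-TPr 2 and 3, the libraries that were high in cell division genes. The part of that difference was not tested. Rab34 stood at 106, 106 and 110.1 CPM in the Ctl MSC libraries, against 103, 111 and 94.5 CPM in the MSC-TPr libraries, and Rab28 stood at 55.9, 62.4 and 63.2 CPM against 60.6, 56.9 and 53.1 CPM. Both overlapped, with log2 fold changes of -0.06 (SE 0.13) and -0.09 (SE 0.14). Rab40b, at 0.276 to 1.09 CPM, did not pass edgeR's filter and was not tested. Rab23, of hedgehog signalling, and Rab40c overlapped, with log2 fold changes of 0.08 and 0.17.

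The 14 members that were not described had 16 reads or fewer in every library, and 5 of them, Rab9b, Rab17, Rab19, Rab26 and Rab39, had 0 reads in all 6. Rab17, of epithelial recycling endosomes, and Rab26, of secretory granules, belong to these. Rab38, the partner of Rab32 at melanosomes, had 8, 9 and 16 reads in the Ctl MSC libraries, against 6, 6 and 8 reads in the MSC-TPr libraries. Rab33a, of the Golgi, had 0, 12 and 6 reads against 0, 2 and 1 reads.

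The regulators and effectors of Rab proteins were read from a list of 130 genes, of which 118 were tested. Over all 6 libraries edgeR called 1 of them, lower, where 0.401% of all genes were called lower. This was Tbc1d9, a member of the TBC domain family of Rab GAPs, with 214, 632 and 572 reads in the Ctl MSC libraries, against 4, 2 and 3 reads in the MSC-TPr libraries, or 12.9, 33.7 and 31.5 CPM against 0.221, 0.118 and 0.139 CPM. Every MSC-TPr library, including the one numbered 1, was near the limit of 3 reads. The mean in Ctl MSC was 164 times the pooled level in MSC-TPr (86.3 to 358, from the 95% Poisson interval of the 9 reads, counting error only), and edgeR gave a log2 fold change of -7.29 (SE 0.55, adjusted p = 0.00975). The adjusted p from edgeR ranged from 0.00262 to 0.122 when each library was left out in turn, and the call was lost without Ctl MSC 2 (0.0504), Ctl MSC 3 (0.0549), MSC-TPr 2 (0.122) or MSC-TPr 3 (0.111).

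The other 33 GAPs tested were not called over all 6 libraries by edgeR or DESeq2, and with Tbc1d9 counted, 2 of the 34 passed p under 0.05 before adjustment in edgeR, where 15.0% of all genes passed. Tbc1d4, the GAP of Rab10 in GLUT4 traffic, stood at 15.5, 8.06 and 7.497 CPM in the Ctl MSC libraries, against 6.53, 15.4 and 24.9 CPM in the MSC-TPr libraries, with a log2 fold change of 0.60 (SE 0.53) and the libraries numbered 1 on the side of the other label. Tbc1d16 had a log2 fold change of 0.68 (SE 0.85) and Sgsm1, with 0 reads in MSC-TPr 1, one of -1.95 (SE 0.83).

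Of 37 exchange factors tested, edgeR called 0 over all 6 libraries, with 1 higher and 2 lower at p under 0.05 before adjustment, where 6.81% of all genes were higher and 8.23% lower. DESeq2 called 2 lower, where 3.42% of all genes were called lower, namely Dennd2a and Dennd6a, the second of which was named after its values were seen. Dennd2a, of the DENN domain family, stood at 1.63, 2.51 and 2.65 CPM in the Ctl MSC libraries, against 0.609, 0.473 and 0.464 CPM in the MSC-TPr libraries, without overlap (log2 fold change -2.12, SE 0.36, edgeR adjusted p = 0.0774, DESeq2 adjusted p = 0.00113). Dennd2d had a log2 fold change of -1.64 (SE 0.75), with Ctl MSC 1 at 0.906 CPM beside 8.75 and 8.16 CPM in the other controls. Ankrd27 (VARP), an exchange factor of Rab21 that also binds Rab32, stood at 36.8, 36.2 and 32.8 CPM in the Ctl MSC libraries, against 43.3, 51.9 and 62.7 CPM in the MSC-TPr libraries (log2 fold change 0.58, SE 0.18, edgeR adjusted p = 0.227). Mon1b, of the complex that activates Rab7, was likewise higher without overlap, with a log2 fold change of 0.55 (SE 0.24).

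Of 39 effectors tested, edgeR called 0 over all 6 libraries, with 3 higher and 1 lower at p under 0.05 before adjustment, where 6.81% of all genes were higher and 8.23% lower. DESeq2 called 2 higher and 1 lower, where it called 1.90% of all genes higher and 3.42% lower. Bicd1, which links Rab6 vesicles to dynein, stood at 8.70, 8.75 and 7.11 CPM in the Ctl MSC libraries, against 18.6, 15.96 and 15.7 CPM in the MSC-TPr libraries (log2 fold change 1.03, SE 0.20, edgeR adjusted p = 0.0953, DESeq2 adjusted p = 0.000278). Rabepk, an effector of Rab9 that was named after its values were seen because DESeq2 called it, stood at 22.0, 17.1 and 16.9 CPM against 35.6, 40.0 and 34.8 CPM (log2 fold change 0.98, SE 0.18, edgeR adjusted p = 0.0902). In both genes the groups did not overlap, and the libraries numbered 1 lay with their labels. Appl2, a Rab5 effector of signalling endosomes, stood at 35.2, 96.5 and 75.4 CPM in the Ctl MSC libraries, against 36.2, 18.03 and 16.8 CPM in the MSC-TPr libraries, at a log2 difference of -1.54 (SE 0.46, edgeR adjusted p = 0.214, DESeq2 adjusted p = 0.0356). Sytl5 and Exph5, both Rab27 effectors, had log2 fold changes of 1.10 (SE 0.44) and -0.97 (SE 1.08), and their groups overlapped.

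The 8 genes of prenylation and GDP dissociation had 0 calls by edgeR and by DESeq2, and 1 passed an unadjusted p under 0.05 in edgeR, where 15.0% of all genes passed. Gdi2, a GDP dissociation inhibitor at 372 to 607 CPM, overlapped, with a log2 fold change of -0.24 (SE 0.19). Chm and Chml, the Rab escort proteins, had log2 fold changes of 0.32 (SE 0.15) and 0.37 (SE 0.24). Over the libraries numbered 2 and 3, edgeR called 28 of the 118 genes (23.7%), 10 higher and 18 lower, beside 23.3% of the Rab genes and 40.0% of all genes.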

How the data were processed

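Libraries of polyadenylated RNA from 3 Ctl MSC and 3 MSC-TPr samples were made with a KAPA kit that keeps the strand and read as pairs. The authors aligned reads to mm10 and deposited raw counts per gene from Htseq-count, without normalization. Whether counting used the strand is not given in the sources used here. The submitters' processing notes name CASAVA 1.8.2, Trimmomatic 0.35 and TopHat2 2.1.0. Reads on genes were 79.2% to 86.2% of those listed, and the others, in 5 summary rows, were left out of library sizes and tests.

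Counts were tested in R 4.3.3 with edgeR 4.0.16 on all genes (TMM, filterByExpr, quasi-likelihood test, group as the only term, Benjamini-Hochberg adjustment), and with DESeq2 1.42.0 as an alternative. The SE is the size of the log2 fold change divided by the square root of F. The steps were tested on simulated counts. Other alternatives were RLE and upper quartile scaling, no filter or at least 10 counts in every library, no fold change threshold, the replicate number as a block, leaving out each library, the libraries numbered 2 and 3 alone, and coding length in place of exon length. The libraries numbered 2 and 3 were fitted alone because of how the libraries lay in these data. DESeq2 on the libraries numbered 2 and 3 was chosen after seeing the data. Samples were grouped by their labels.

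Symbols were matched to GENCODE vM21 (23032 of 23420), which gave coordinates, exon overlaps and lengths in GRCm38. Promoters came from RefSeq in GRCm38.p6 and were read with Python 3.11.15.

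Members given with values per library were those called in either fit, those without overlap between the groups, the 3 most abundant per class, the 5 largest log2 fold changes in each direction and 9 members linked to cross-presentation. Of the regulators, those called and the 2 largest log2 fold changes in each direction per list were named. The members and lists were chosen with earlier results of these data known. Of the genes this rule selects, 1 is not reported here.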

Additional observations from a re-analysis of the deposited data

How the results depend on the processing

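The count of 0 Rab genes called in either direction over all 6 libraries held with DESeq2, RLE or upper quartile scaling, no filter, at least 10 counts in every library, no fold change threshold and each library left out. On the libraries numbered 2 and 3, edgeR called 5 higher and 5 lower and DESeq2 6 higher and 5 lower. The median log2 fold change of the members, 0.04, was 0.10 and 0.12 in these fits, -0.00 with upper quartile scaling and -0.036 to 0.11 with each library left out, where 15 of 43 members changed sign in at least 1 fit. The cause of these shifts was not tested. Of the regulators and effectors, 0 were higher and 1 lower in the edgeR fit over 6 libraries, 2 and 4 with DESeq2, 0 and 0 with at least 10 counts in every library (Tbc1d9 had fewer in the MSC-TPr libraries), 10 and 18 on the libraries numbered 2 and 3, and 9 and 19 there with DESeq2. With each library left out, 0 to 2 were lower. For all genes the same counts were 3 and 48, 244 and 439 with DESeq2, 2 and 29 with at least 10 counts, 2498 and 2356 on the libraries numbered 2 and 3, 2411 and 2153 there with DESeq2, and 0 to 11 and 0 to 105 with each library left out.

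The differences of libraries with 1 number from the mean of their label correlated at -0.76, -0.59 and -0.60. Such differences sum to 0 within a label, so these values depend on each other and cannot show whether the libraries were made in pairs. With the replicate number as a block, edgeR called 0 Rab genes, 0 regulators or effectors (Tbc1d9 adjusted p = 0.243) and 0 genes in all, while 0 Rab genes and 776 of 11974 genes had an unadjusted p under 0.05.

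The common dispersion was 0.124 over the 6 libraries and 0.0168 over those numbered 2 and 3. By the mean chi-square per gene between the counts of 2 libraries, Ctl MSC 2 and 3 were the closest pair, at 4.97. MSC-TPr 2 and 3 differed by 52.3. The SEs and adjusted p-values of the edgeR fit over the libraries numbered 2 and 3 rest on the spread within these 2 pairs. Ctl MSC 1 differed from MSC-TPr 2 and 3 by 83.6 and 84.8, and from Ctl MSC 2 and 3 by 182.6 and 170.9. MSC-TPr 1 differed from Ctl MSC 2 and 3 by 77.05 and 68.03, and from MSC-TPr 2 and 3 by 160 and 200.3. Depth limits members with few reads, such as Rab3c and Rab27a, which were not tested.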
